A study of Rattus norvegicus with 10 samples.

Results

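The genes described here form a block that stood high in a single hippocampal library, that of replicate 5 of the bred Low Responder line (bLR). The members were chosen by their measured values: a gene was taken where its log2 value in that library lay more than 3 above the median of the other 9 libraries, which was true of 47 of 16643 genes in the table (0.282%). The members were proposed as a choroid-plexus-like group, with Ttr as the gene to look for. The data went against that name: Ttr was not a member, no member followed Ttr closely in the other libraries, and the genes are therefore called by their rule.

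The study compared male rats of generation 43 from a line selectively bred for a high response to novelty (bHR, bred High Responder) with bLR rats, 5 rats per line. All 10 rats were kept in standard housing and injected with vehicle on 14 days, up to postnatal day 92, when they were killed 1 hour after testing on an elevated plus maze. Polyadenylated RNA of the whole hippocampus was sequenced, 1 library per rat. The rats are separate animals, so a p-value between lines measures the spread between animals.

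The choroid plexus is the secretory epithelium of the brain ventricles that makes cerebrospinal fluid, and it lies against the hippocampus in the lateral ventricle. Its cells produce large amounts of transthyretin, the product of Ttr, which carries thyroid hormone and, through retinol-binding protein, retinol. Pieces of it can stay attached when a hippocampus is dissected, so Ttr is commonly read as a mark of how much of this tissue a sample holds.

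The libraries held 29106105 to 48663164 reads assigned to genes, and that of bLR replicate 5 held 29211331. Across genes, which are not independent replicates, its log2 values correlated with those of the other libraries at 0.983 to 0.987, against 0.986 to 0.994 among the other 9. With the 47 members left out, its correlations were 0.988 to 0.991. A rise follows from how the members were chosen. The range among the other 9 was not computed without the members. This library chose the members, so every comparison between lines below leaves it out. Ttr is the only gene named here, since the table gives Ensembl identifiers and 0 of the 16643 matched the gene table used. Other genes are given by identifier or by their row in the deposited table, counted from 1 after the header.

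Ttr was not high in bLR replicate 5. Its log2 values (log2 RPM, reads scaled to the effective library size) were 9.54, 10.10, 9.69, 10.10 and 11.61 in bHR replicates 1 to 5 and 11.43, 10.31, 9.64, 10.65 and 10.33 in bLR replicates 1 to 5. The highest were bHR replicate 5 and bLR replicate 1, with 107125 and 102640 reads, while bLR replicate 5 stood at rank 4 of the 10 libraries with 35124. In that library Ttr lay 0.23 above the median of the others, 1.18-fold, and 10.2% of all genes had a larger excess. Across the other 9 libraries Ttr spanned 4.19-fold from lowest to highest. The lines overlapped, at 10.21 ± 0.82 (SD, n = 5) in bHR and 10.51 ± 0.74 (n = 4) in bLR, and Ttr did not pass between them (log2 difference of bHR minus bLR -0.30, SE 0.42, limma adjusted p = 0.79). In bulk tissue, more cells of a type and more RNA per cell cannot be told apart.

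All but a few members were set apart by bLR replicate 5 alone. Their excess in that library, the value on which they were chosen, ran from 3.18 to 7.20 with a median of 4.58, or 23.9-fold. In 42 of the 47 the library was more than 3 above the highest of the other 9 libraries as well. The members nearest the threshold had an excess of 3.18, 3.19 and 3.33, and the genes just outside it had 2.94, 2.88 and 2.84. Only 7 genes had an excess between 2 and 3, and 74 had one between 1 and 2. In the opposite direction 5 genes lay more than 3 below the median of the others. By the same rule the other libraries held 2 to 13 genes each, of which 0 to 2 were members of the block.

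**Figure D1:**
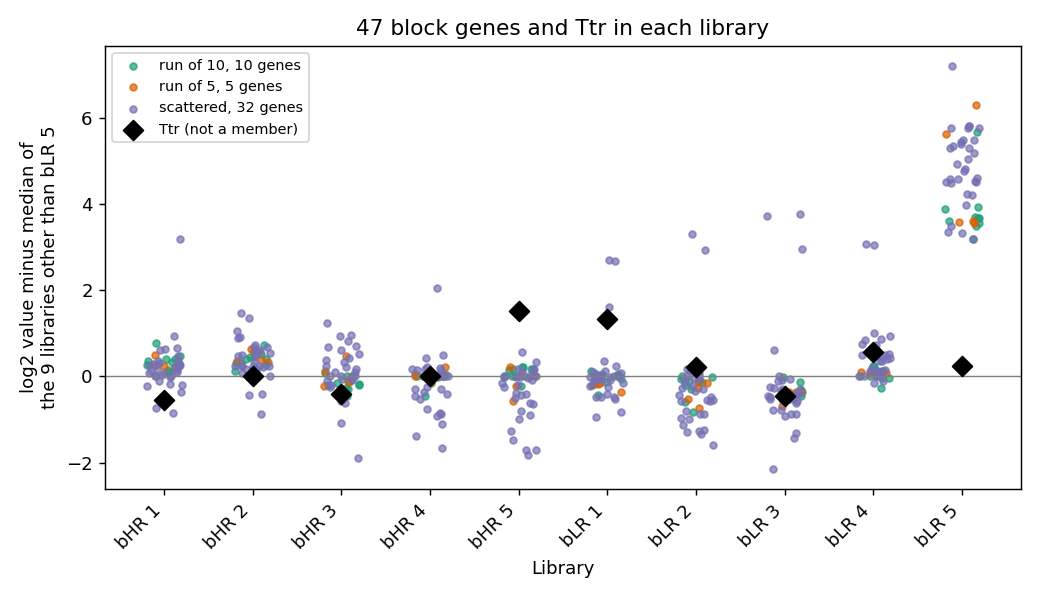
Log2 value of each of the 47 members in each library, as the difference from its median over the 9 libraries other than bLR replicate 5, with Ttr as black diamonds. All members lie above 3 in bLR replicate 5, as the rule requires, while Ttr is at 0.23 there and highest in bHR replicate 5 and bLR replicate 1.

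The member with the largest excess was ENSRNOG00000051966. Its log2 values were -3.04, -1.89, -1.59, -2.82 and -4.52 in bHR replicates 1 to 5, -2.76, -4.07, -2.87 and -1.96 in bLR replicates 1 to 4, and 4.38 in bLR replicate 5. These come from 1 to 16 reads in the other libraries and 569 in bLR replicate 5, so the level elsewhere was close to the floor of detection. ENSRNOG00000053888 came next and was well covered in every library. It measured 6.06, 6.41, 6.29, 5.68 and 5.25 in bHR replicates 1 to 5 and 5.82, 5.08, 5.13 and 6.29 in bLR replicates 1 to 4, against 12.11 in bLR replicate 5. In reads this was 1152 to 3882 against 120535, and an excess of 6.29 (78.4-fold).

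The most abundant member, in row 41 and singled out after its values were seen, was also the most abundant of the block in every library. Its log2 values were 12.12, 12.23, 11.77, 11.85 and 12.06 in bHR replicates 1 to 5 and 11.69, 11.33, 11.40 and 11.94 in bLR replicates 1 to 4. In bLR replicate 5 it reached 15.41, from 1185109 reads against 88907 to 173345 elsewhere. The bHR and bLR values overlapped through bLR replicate 4 alone. The member in row 10586 followed, at 499480 reads against 36543 to 68526 elsewhere.

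The excess differed with the level of a gene in the other libraries, but did not rise steadily as the level fell. The 4 members at a median log2 value of 8 or more had an excess of 3.56 to 3.88, a narrow range. The 10 members between 3 and 8 ran from 3.48 to 6.29 with a median of 3.69. The 10 members between 0 and 3 had a median of 5.24, and the 23 below 0 had a median of 4.81 and ran from 3.19 to 7.20. Both quantities come from the values that chose the members, so this is a description. It rests on few reads at the low end, where 22 members had fewer than 16 reads in at least 1 of the other 9 libraries. The authors' filter asked for 16 reads in 5 samples, and over these 10 libraries 35 of the 47 members met it and 12 did not. Of all 16643 genes, 505 did not meet it over these 10 libraries.

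**Figure D2:**
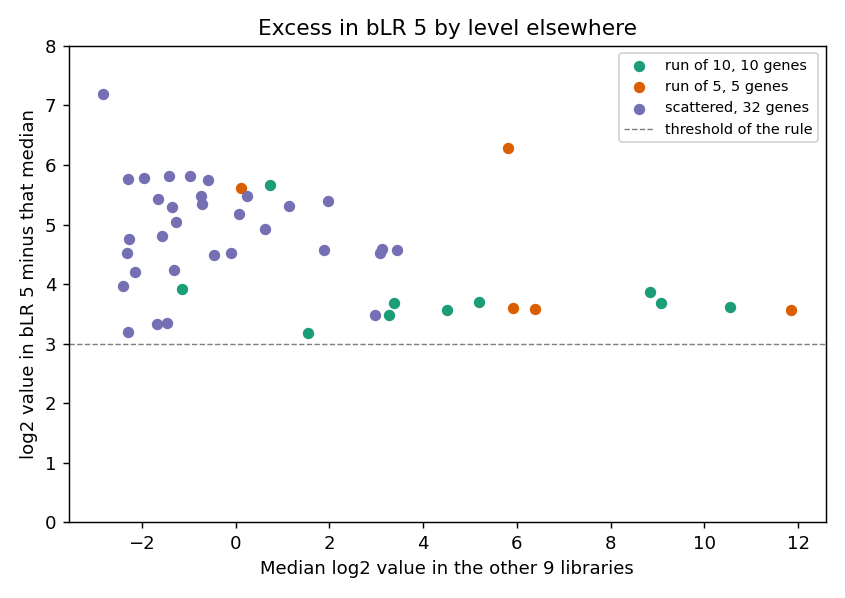
Excess of each member in bLR replicate 5 (vertical, log2) against its median log2 value in the other 9 libraries (horizontal), coloured by place in the table. The 4 members at a level of 8 or more lie between 3.56 and 3.88, and members below 3 spread up to 7.20.

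A feature the rule did not use was where the members stood in the table. Of the 47, 15 filled 2 unbroken runs of rows, 5 members in rows 40 to 44 and 10 in rows 10584 to 10593. The remaining 32 were scattered, with row numbers at least 23 apart. The borders of the runs were sharp. In the 5 rows on either side of the shorter run the excess was -0.41 to 1.00, and beside the longer run it was -0.13 to 0.37. The table carries no positions, so what the neighbouring rows share in the genome was not tested, nor was whether these genes share reads through similar sequence.

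The most abundant members were in the runs. Levels in the other libraries, as each gene's median log2 value, ran from 0.11 to 11.85 in the run of 5 (median 5.91), from -1.15 to 10.55 in the run of 10 (median 3.94) and from -2.82 to 3.45 among the scattered members (median -1.12), so part of the runs lay inside the scattered range. In the run of 10 the excess was under 4 in 9 of 10 members, and in the run of 5 in 3 of 5. Of the 32 scattered members 5 were under 4 and 15 were over 5. The median excess was 3.60 in the run of 5, 3.68 in the run of 10 and 4.87 among the scattered members. The excess is the value that chose the members, so this is a description. The lowest read number over the other libraries differed too. Its median was 1347 in the run of 5 without row 41, 417.5 in the run of 10 and 8 among the scattered members. Whether the contrast followed read level was not tested.

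**Figure D3:**
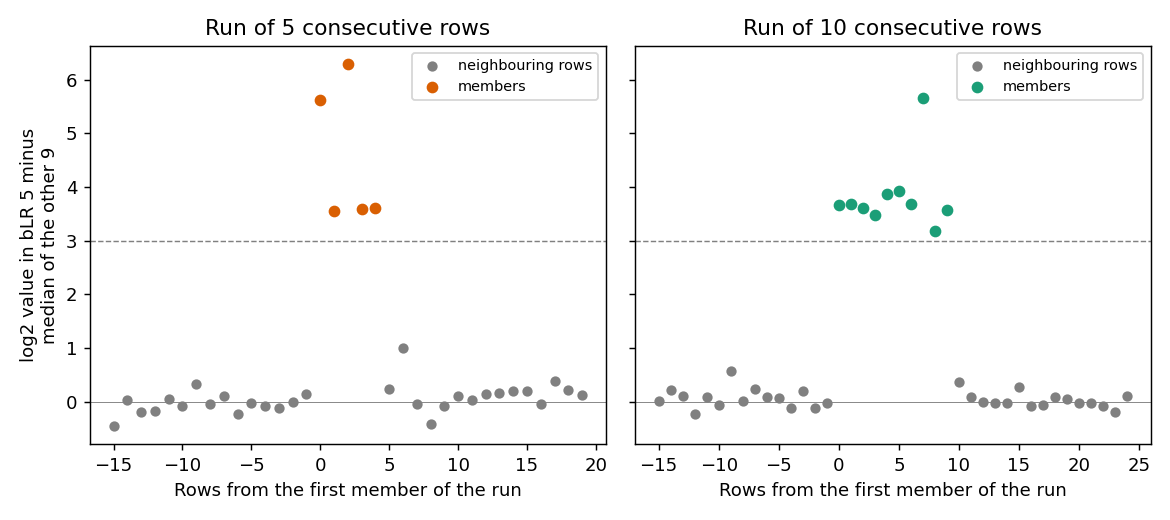
Excess in bLR replicate 5 (vertical, log2) by row of the deposited table, counted from the first member of each run (horizontal), with 15 neighbouring rows on each side. Members rise above the dashed threshold of 3, and the neighbouring rows stay near 0, the highest within 5 rows of the shorter run being at 1.00.

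The identifiers of the members also stood apart. Ensembl gives newly annotated gene models new numbers, and 38 of the 47 members (80.9%) had an identifier number of 50000 or more. Of all 16643 genes, 2283 did (13.7%). The boundary was set after the identifiers were seen, and the shares are given as a description.

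The members made up 7.86% of the reads in bLR replicate 5 (95% Wilson interval 7.85 to 7.87%, which covers counting error only). In the other 9 libraries they made up 0.49 to 0.84%. A handful of genes held most of these reads. Of the block's reads, the row 41 gene held 51.6% in that library, where its share elsewhere was 50.3 to 57.6%. The gene in row 10586 held 21.7% there and 21.5 to 25.6% elsewhere. For row 10584 the share was 8.18% against 7.98 to 9.72%, and for row 10588 it was 7.97% against 6.99 to 8.56%. All 4 lay inside the range of the other 9 libraries, but for rows 41 and 10588 only through bLR replicate 2. Without it the range was 55.8 to 57.6% for row 41, above the share in bLR replicate 5, and 6.99 to 7.69% for row 10588, below it. Rows 10586 and 10584 stayed inside the range of the remaining 8 libraries.

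ENSRNOG00000053888 did not keep its proportion. Its share of the block was 5.25% in bLR replicate 5, above every other library (0.51 to 1.29%). The other 42 members together held 5.26% against 4.01 to 5.08%. Among the other libraries bLR replicate 2 had the lowest share of the row 41 gene, 50.3%, and the highest shares of rows 10586, 10584 and 10588.

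The scaling of the library stood apart as well. In bLR replicate 5 the authors' effective library size was 0.933 times the total reads, where every other library was between 1.00 and 1.02. Relative to the reads outside the block, the factor for bLR replicate 5 was 1.01, inside the range of 1.01 to 1.03 elsewhere. The reads taken out were those of genes chosen for being high in that library. The part of the block in the scaling was not tested. The median of all genes in that library was 4.10 on the log2 scale, within the range of the other libraries.

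The next question was whether the members followed Ttr in the 9 libraries that did not choose them. They did not: the median Pearson r of the 47 members with Ttr was -0.04, from -0.72 to 0.28, and 27 were below 0. Over all other genes the median was -0.03. No member reached an r of 0.5, which 11.6% of all genes did, and no member reached 0.9, which 1.0% did. With the 2 libraries farthest from the median of Ttr left out, bHR replicate 5 and bLR replicate 1, the median over 7 libraries was 0.05 and the range -0.43 to 0.49. These coefficients share the same few libraries and their scaling, and are given without a test.

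A single relation was tested, that of Ttr with the row 41 gene over the 9 libraries. Pearson's r was 0.10 (two-sided exact permutation p = 0.80 over 362880 orders) and Spearman's rho was -0.08 (exact p = 0.84). Without bHR replicate 5 and bLR replicate 1, r was -0.01 (exact p = 0.97). With so few libraries only a strong relation could have passed.

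Ttr had followers of its own. In the same 9 libraries 167 genes had an r of 0.9 or more with Ttr, and 0 of them were members. Their median deviation from the middle of the libraries was 0.90 in bHR replicate 5 and 0.76 in bLR replicate 1, the rats with the most Ttr. Both values follow from how these genes were chosen. In bLR replicate 5, which was not used to choose them, their excess had a median of 0.03 and ran from -0.85 to 1.03. The genes that moved with Ttr thus stood at an ordinary level in the library where the block was high.

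**Figure D4:**
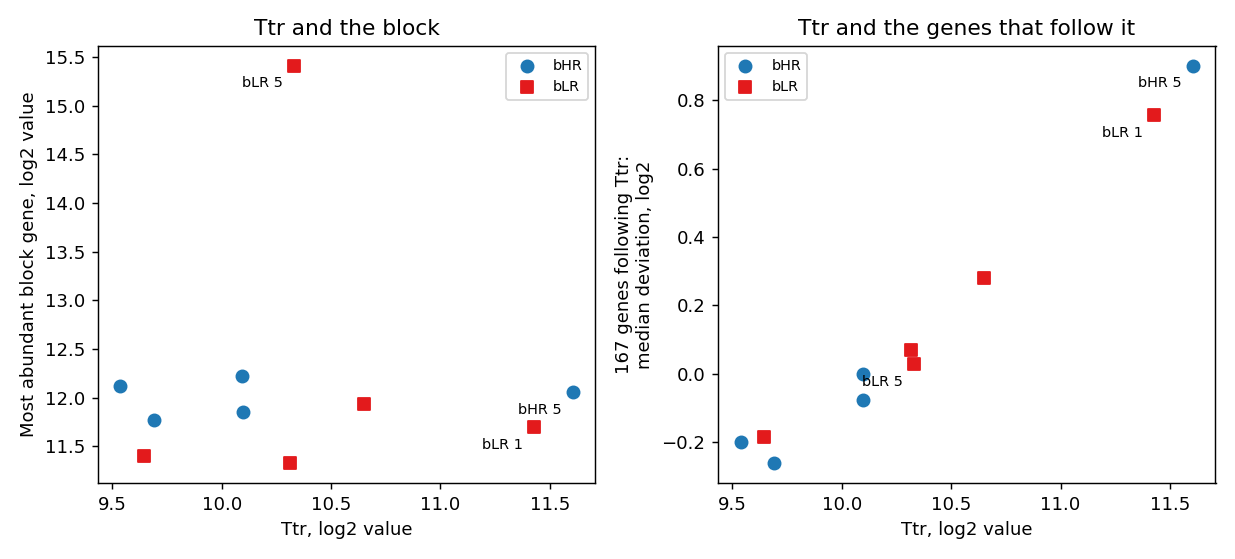
Left, log2 value of the most abundant member (row 41) against that of Ttr in all 10 libraries. Right, the median deviation of the 167 genes with an r of 0.9 or more with Ttr, chosen on the 9 libraries other than bLR replicate 5. That library stands apart at 15.41 on the left and lies at 0.03 on the right. On the right bHR replicate 5 and bLR replicate 1 are highest, which follows from that choice.

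Over the 9 other libraries, all pairs of the 47 members had a median Pearson r of 0.49. No matching value was computed over pairs of all genes. The median r of the other 46 with the row 41 gene was 0.70, from -0.72 to 0.95, and 30 of them (65.2%) had an r of 0.5 or more, against 10.7% of all genes. Leaving out bLR replicates 2 and 3, the libraries farthest from the median of that gene, gave a median of 0.55 over 7 libraries, with 25 at 0.5 or more. By median the members in runs were closest, at 0.84 in the run of 10 (0.39 to 0.92) and 0.80 among the other 4 of the run of 5 (0.66 to 0.88). For the 32 scattered members the median was 0.56, but they ran from -0.72 to 0.95, above the highest of either run. The median of their lowest read number was 8. The part of counting noise in their lower coefficients was not tested.

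The scattered member in row 4561 came nearest, with an r of 0.95. It measured 0.27, 0.04, -0.29, -0.01 and 0.00 in bHR replicates 1 to 5 and -0.34, -0.66, -0.61 and -0.09 in bLR replicates 1 to 4, against 4.43 in bLR replicate 5. Its lowest values, like those of the row 41 gene, were in bLR replicates 2 and 3. Of the 17 genes with an r of 0.9 or more with row 41, 5 were members. The other 12 were not high in bLR replicate 5, where their excess was between -0.47 and 0.03.

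**Figure D5:**
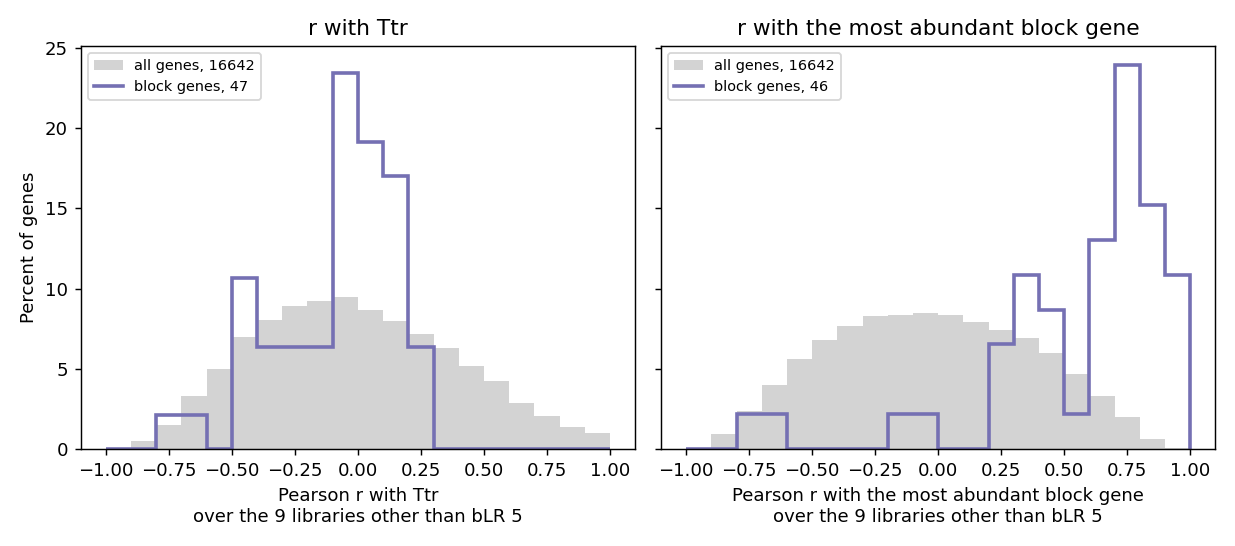
Distribution of Pearson r over the 9 libraries other than bLR replicate 5, with Ttr (left) and with the most abundant member (right), as percent of genes in bins of 0.1. The 47 members centre on -0.04 with Ttr, like all genes (grey), and the other 46 centre on 0.70 with the most abundant member.

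Between the lines, with bLR replicate 5 left out, 2 of the 47 members passed (limma, Benjamini-Hochberg adjusted p under 0.05), both lower in bHR. Of all genes 1.3% passed in either direction, and 0.703% passed with the lower level in bHR. The same 2 members were the only ones whose bHR and bLR libraries did not overlap, which was so for 6.14% of all genes, and for 3.26% with bHR the lower. Of the 9 libraries behind the median 5 were bHR, so a gene low in every bHR library and higher in every bLR library could meet the rule through its line. Nothing is therefore read from these calls.

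Both are given because they differ from the rest of the block. ENSRNOG00000010268 measured -2.30, -1.89, -2.54, -1.87 and -1.46 in bHR replicates 1 to 5, from 7 to 12 reads, and 1.23, 1.84, 2.26, 1.58 and 1.88 in bLR replicates 1 to 5. The value in bLR replicate 5 lay inside the range of its line. ENSRNOG00000055892 measured -2.30, -3.17, -2.93, -3.06 and -3.78 in bHR and 0.38, 0.62, 0.65, 0.76 and 0.89 in bLR, where replicate 5 was 0.13 above the next. The log2 difference of bHR minus bLR over the 9 libraries was -3.74 (SE 0.27) and -3.65 (SE 0.29). Both were chosen for display after their values were seen, and their r with the row 41 gene was -0.72 and -0.69.

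The member in row 13162 was uneven in both lines, as was seen after the fact. It measured 0.78, -2.81, -4.31, -0.37 and -3.30 in bHR and -0.80, -2.69, 1.36, -2.41 and 1.56 in bLR, replicates 1 to 5, from 2 to 84 reads. Here bLR replicate 5 was only 0.20 above bLR replicate 3.

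The other 45 members did not pass between the lines, with limma adjusted p from 0.11 to 0.98. Their log2 differences ran from -0.87 to 0.91, and 41 of the 45 had the higher mean in bHR. Over all 47 the median difference was 0.27, beside -0.01 over all genes, of which 47.1% had the higher mean in bHR. At an unadjusted limma p under 0.05 there were 14 of all 47 members, where 2529 of 16643 genes (15.2%) passed. The 14 include the 2 members that passed between the lines, which could meet the rule through their line. The members vary together, so these counts do not add up as separate observations. The row 41 gene was at 12.01 ± 0.19 (SD, n = 5) in bHR and 11.59 ± 0.28 (n = 4) in bLR, a difference of 0.42 (SE 0.13, limma adjusted p = 0.15). The member with the smallest adjusted p of the 45, in row 16335, was at 3.22 ± 0.14 and 2.85 ± 0.18, a difference of 0.36 (SE 0.10, limma adjusted p = 0.11).

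The labels give no batch, date or extraction order for the libraries. The rat of bLR replicate 5 had the lowest social interaction score of the 10, 7.33, next to 8.0 in bLR replicate 2, whose share of reads in the block was 0.52%. The source of the block's reads in bLR replicate 5 was not tested.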

How the data were processed

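Per the labels' protocols and the submitters' processing notes, reads went through Subread against Rnor_6.0 and featureCounts with Ensembl release 85, genes with 16 or more counts in 5 samples stayed in, and the authors deposited log2 values from limma voom in R 3.2.2. How strand was handled in counting is not stated in those sources. Whole reads were recovered from the log2 values with 1 constant per library (100.0% within 0.01 reads of a whole number). In 20 same-line pairs of libraries the chi-square per gene was at least 6.10, so none counted as duplicates.

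For the line comparison, limma 3.58.1 (R 4.3.3) was fitted to the log2 values of 9 libraries, with an intensity trend and Benjamini-Hochberg adjustment over 16643 genes. Data were simulated for this comparison with 200 of 16643 genes changed, 50 for each size of change. The fit recovered 26% of the 1.2-fold changes, 78% of the 1.5-fold, 94% of the 2-fold and 100% of the 4-fold changes. It made 157 calls, and 8 were false. The changed genes were drawn only from genes with a mean of more than 50 reads over the 9 libraries. Recovery was not split by read level. These shares therefore do not stand for all genes, and were not measured for the members with few reads. Other values came from Python 3.11.15, numpy 2.4.6, pandas 2.3.3 and scipy 1.17.1, and figures from matplotlib 3.10.9.

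The members and lists were chosen with earlier results of these data known. Genes are named by a rule: Ttr, and the 2 members with the largest excess. Others shown were chosen after their values were seen. The marker and pathway lists need gene symbols and were not applied. Alternatives covered the threshold and baseline of the rule, filters, scaling, prior count, trend, weights, a replicate block and leaving out each library.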

Additional observations from a re-analysis of the deposited data

Results flagged for a closer look

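For 8 measures, the highest and lowest libraries of each line were set against the spread of their line (16 groups of 5 libraries, of which chance would mark about 1 in 20), and 7 values stood apart. Of these, 4 follow from how the members were chosen, all in bLR replicate 5: the most abundant member at a log2 value of 15.41 with the next bLR library at 11.94, ENSRNOG00000051966 at 4.38 with the next at -1.96, ENSRNOG00000053888 at 12.11 with the next at 6.29, and the block's share of reads at 7.86% with the next at 0.70%. The effective size over total reads of bLR replicate 5, 0.933, stood apart as well, and its link with that share was not tested. The nearest other bLR library was at 1.00, and against the reads outside the block no bLR library stood apart.

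The other 2 values were in bHR replicate 5, and neither was used in choosing the block. Ttr was at 11.61 there, with the next bHR library at 10.10. The genes with an r of 0.9 or more with Ttr, which were chosen on libraries that include this one, had a median deviation of 0.90, with the next bHR library at 0.00. In bLR replicate 1, Ttr at 11.43 did not stand apart from its line by the same measure.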

How the results depend on the processing

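The number of members, 47, was 30 at a threshold of 4 and 20 among genes with a mean log2 value of at least 1. It was 42 to 54 in the other settings with all libraries, 45 with the median of all 10 libraries (added after seeing the data), and 45 to 48 without 1 library. The share of reads in bLR replicate 5, 7.86%, became 3.81% without the most abundant member, 8.42% of the effective library size, 7.8646% with members over 2 and 0.56% with members over 4, since the abundant members lie between 3 and 4. The same 2 members passed between the lines in every setting run, 2 each time 1 library was left out, except 0 with a mean log2 value of at least 1, where neither was among the 20 members tested. Over all genes 216 passed, 133 without the trend, 131 with the replicate block and 95 to 209 without 1 library, the 5 lowest, at most 119, without bHR replicate 1, 2, 3 or 4 or bLR replicate 2; voom weights, added after seeing the data, gave 250. Ttr passed in none: its difference of -0.30 ran from -0.65 to 0.0020 without 1 library, turning sign only without bLR replicate 1 (0.0020, limma adjusted p = 1.00). The Ttr difference was -0.65 both with the replicate block (limma adjusted p = 0.31) and without bHR replicate 5. With bLR replicate 5 left out, bHR replicate 5 has no partner in the block and adds nothing to that difference. The median r of the members with Ttr stayed between -0.12 and 0.11 with all 9 or 10 libraries and between -0.27 (without bLR replicate 3) and 0.12 (without bHR replicate 1) without 1 library, with 0 members at 0.5 or more in each. No pairing of the rats by replicate number was evident. Same-number correlations were 0.03 to 0.08, and the best match carried the same number for 2 of 4 bHR libraries. So small a check cannot exclude pairing. The planned count models on the recovered reads were not run. Depth limits the members with few reads: 22 had under 16 in some other library.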
